A study of Mus musculus with 4 samples.

Results

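The pyruvate dehydrogenase complex of mitochondria turns pyruvate into acetyl-CoA and so joins glycolysis to the citrate cycle. Kinases of the PDK family switch the complex off by phosphorylating its alpha subunit, and phosphatases of the PDP family switch it on again. In heart muscle, which burns mainly fatty acids, the kinases hold back glucose oxidation, and Pdk4 is the family member best known for following fasting and fatty acid signals through PPAR receptors. The 10 genes described here code for 4 catalytic subunits (Pdha1, Pdhb, Dlat and Dld), 4 kinases (Pdk1, Pdk2, Pdk3 and Pdk4) and 2 phosphatases (Pdp1 and Pdp2). They were taken by symbol from the deposited tables, and all 10 were found among 17550 genes with at least 1 read in some library.

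RNA was sequenced from left ventricle of C57BL/6 mice aged 8 weeks, 3 days after an experimental myocardial infarction, so non-infarcted tissue also came from a heart with an infarct. There were 4 groups with 1 library each: infarcted and non-infarcted tissue of mice labelled Neil3-/-, that is, as lacking the DNA glycosylase Neil3, and infarcted and non-infarcted tissue of wild-type mice. How many mice gave each library, and which part of Neil3 was deleted, are not stated. No difference below has a replicate check, no p-value is given, and the 95% intervals in parentheses are exact intervals that cover counting error only. They are Clopper-Pearson intervals, except where an infarct ratio is divided by its wild-type value.

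The libraries held 14.3 M to 18.2 M uniquely assigned reads. Levels are in RPKM, the deposited reads per kilobase of gene model scaled to the total reads of the library, and 1 read on a gene of 2 kb was worth 0.0275 to 0.0350 RPKM. Neil3 was at 18.5 and 12.05 RPKM in the infarcted and non-infarcted libraries labelled Neil3-/-, against 3.95 and 1.83 RPKM in wild type. The gene's total was thus not lower in the libraries labelled Neil3-/-, and every genotype comparison below is between libraries as labelled. The heart label was checked on 12 cardiomyocyte markers such as Myh6 and Actc1, all of which had reads in all 4 libraries. Several of them are expressed in atrium too, so they do not check for ventricle, and atrial markers are given with the genotype comparison. Their summed level was 12548 and 38500 RPKM in infarcted and non-infarcted tissue labelled Neil3-/-, and 18751 and 39959 RPKM in wild type.

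**Figure D1:**
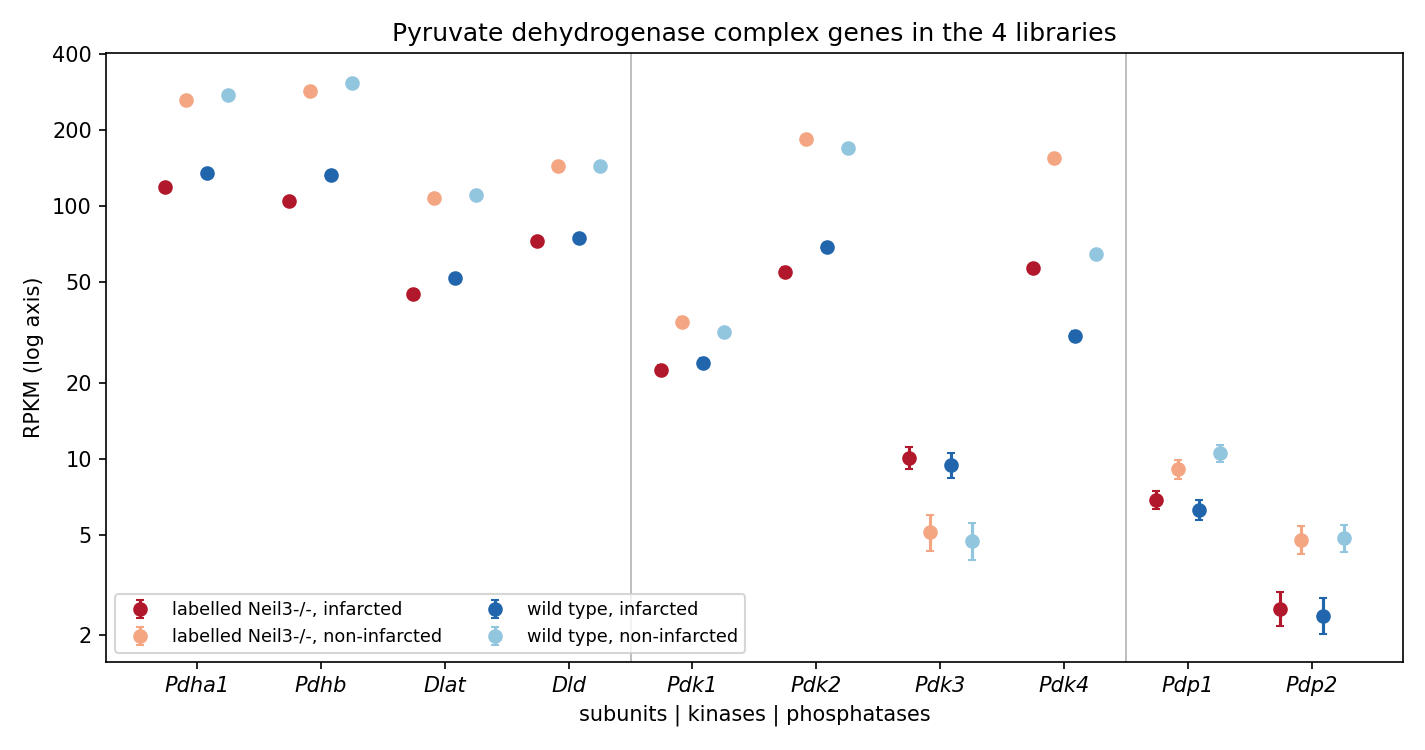
RPKM (vertical log axis) of the 10 genes in the 4 libraries; each point is 1 library and the bars are exact 95% counting intervals. Pdk3 is higher in infarcted tissue and the other 9 genes are lower there within each genotype, while Pdk4 is higher in the library labelled Neil3-/- than in the wild-type library of the same tissue.

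Pdha1 and Pdhb were the most abundant of these messages in every library. Pdha1, the alpha subunit of the first enzyme and the target of the kinases, was at 120 and 264 RPKM in infarcted and non-infarcted tissue labelled Neil3-/-, and at 135 and 275 RPKM in wild type. Pdhb, its beta partner, was at 105 and 287 RPKM in tissue labelled Neil3-/- and at 133 and 307 RPKM in wild type. Both genes were lower in each infarcted library than in either non-infarcted one. Dlat, the lipoyl-bearing acetyltransferase core, was at 44.9 and 107 RPKM in tissue labelled Neil3-/- and at 52.1 and 111 RPKM in wild type. Dld, the flavoprotein that reoxidises the lipoyl arm and serves other complexes as well, was at 73.0 and 145 RPKM in tissue labelled Neil3-/- and at 74.9 and 145 RPKM in wild type. Among the subunits, per length, Dld came next and Dlat last in every library.

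The kinases covered a wider range of levels. Pdk2, the kinase most widespread across tissues, was at 55.1 and 184 RPKM in infarcted and non-infarcted tissue labelled Neil3-/-, and at 68.9 and 170 RPKM in wild type. Pdk4 was at 56.7 and 156 RPKM in tissue labelled Neil3-/- and at 30.6 and 64.7 RPKM in wild type, from 1821 to 7676 reads. For both kinases the infarcted library of each genotype was the lower one, and Pdk4 was higher in each library labelled Neil3-/- than in the wild-type library of the same tissue. Pdk1, a kinase known as a target of the hypoxia factor Hif1a, varied least among the kinases, with 22.5 and 34.9 RPKM in tissue labelled Neil3-/- and 24.0 and 31.7 RPKM in wild type. Pdk3, a kinase of low level in heart, was at 10.1 and 5.11 RPKM in tissue labelled Neil3-/- and at 9.41 and 4.73 RPKM in wild type, from 141 to 367 reads. It was the only one of the 10 genes higher in infarcted tissue, and this held in both genotypes.

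The phosphatases were scarce. Pdp1, the calcium-stimulated phosphatase of muscle, was at 6.87 and 9.08 RPKM in infarcted and non-infarcted tissue labelled Neil3-/-, and at 6.28 and 10.5 RPKM in wild type. Pdp2, the insulin-responsive phosphatase, was at 2.55 and 4.76 RPKM in tissue labelled Neil3-/- and at 2.39 and 4.83 RPKM in wild type. Summed kinase RPKM exceeded summed phosphatase RPKM 15.3-fold and 27.5-fold in infarcted and non-infarcted tissue labelled Neil3-/-, and 15.3-fold and 17.7-fold in wild type. The non-infarcted library labelled Neil3-/- thus stood apart from the other three in this ratio.

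Promoter windows of Pdk4, Pdk3 and Pdk2 are shown because these kinases differed most from one another in what follows. The windows are from RefSeq on build GRCm38.p6, while the reads were counted on mm9. They run from 250 bases before to 50 bases after the annotated start, 5′ to 3′ on the gene's strand, and 9 of the 10 genes matched the table by symbol. Where the table gives several starts, the one listed first is shown. Capitals mark the matches, on either strand, of the first 3 motifs described after them. The Pdk4 window is chr6:5496229-5496528 on the minus strand, the Pdk3 window chrX:93832101-93832400 on the minus strand and the Pdk2 window chr11:95041322-95041621 on the minus strand.
Pdk4: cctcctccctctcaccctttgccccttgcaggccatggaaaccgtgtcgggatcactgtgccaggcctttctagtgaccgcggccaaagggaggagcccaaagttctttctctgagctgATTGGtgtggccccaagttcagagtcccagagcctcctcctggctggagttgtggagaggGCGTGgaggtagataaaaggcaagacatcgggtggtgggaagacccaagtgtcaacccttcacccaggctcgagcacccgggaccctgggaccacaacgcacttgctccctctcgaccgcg
Pdk3: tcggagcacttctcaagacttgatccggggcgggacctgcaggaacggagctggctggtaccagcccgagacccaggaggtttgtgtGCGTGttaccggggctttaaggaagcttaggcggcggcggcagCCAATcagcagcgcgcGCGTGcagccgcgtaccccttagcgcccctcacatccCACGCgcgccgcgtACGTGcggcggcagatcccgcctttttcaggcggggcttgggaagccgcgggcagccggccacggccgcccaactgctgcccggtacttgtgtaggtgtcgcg
Pdk2: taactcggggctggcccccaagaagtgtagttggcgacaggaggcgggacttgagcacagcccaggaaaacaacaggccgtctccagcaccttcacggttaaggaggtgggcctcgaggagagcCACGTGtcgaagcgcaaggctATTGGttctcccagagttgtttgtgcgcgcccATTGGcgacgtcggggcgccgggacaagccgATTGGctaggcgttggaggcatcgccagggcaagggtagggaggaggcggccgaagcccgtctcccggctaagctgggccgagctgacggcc

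The CCAAT box, a common promoter element, occurred 1 time in the Pdk4 window, 1 time in the Pdk3 window and 3 times in the Pdk2 window, and in 37.4% of all 32851 windows. GCGTG, a form of the hypoxia factor core, occurred 3 times in the Pdk3 window and 1 time in the Pdk4 window, had no match in the Pdk2 window, and occurred in 32.4% of all windows. Among windows not printed, GCGTG occurred 4 times for Pdha1, 2 times in the first Pdk1 window and 1 time for Pdhb. The windows of Dlat, Dld and Pdp2 had no GCGTG match. All of these genes were lower in infarcted tissue, and whether a match bears on a gene's level was not tested. ACGTG, its other form, occurred 1 time in the Pdk3 window, had no match in the Pdk4 window, and matched on both strands at a single overlapping CACGTG in the Pdk2 window. It occurred in 19.6% of all windows. Among windows not printed, ACGTG also matched on both strands at a single CACGTG for Pdp2 and 1 time for Pdhb. It had no match for Pdha1, Pdk1, Dlat or Dld. The nuclear receptor motif AGGTCA, found in 16.3% of all windows, had no match in these 3. Nor did the forkhead motif GTAAACA, found in 3.65%, or the TATA box, searched as TATAAA and found in 13.6%. Pdk2 has another listed start, whose window had no match to any of these motifs, and which start was used was not tested. A match is a string of letters and does not show that a factor binds there.

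The first comparison asks how infarcted tissue differed from the non-infarcted ventricle. Of the 10 genes, 9 were lower in infarcted tissue in each genotype, and Pdk3 was higher in both. Of all compared genes, 4229 of 12563 were lower in infarcted tissue labelled Neil3-/- and 4100 of 12515 in wild type. Most compared genes were thus higher there, as Pdk3 was. A gene entered this count if either library reached 1 RPKM, and its fold was taken from log2(RPKM + 1), which understates changes of low genes. In tissue labelled Neil3-/-, 5 of the 10 were at least 2-fold lower, where 6.07% of 12563 compared genes were. In wild type 5 of the 10 were at least 2-fold lower, where 3.6% of 12515 compared genes were. Pdha1, Pdhb, Dlat, Pdk2 and Pdk4 made up both counts, so 5 genes were shared. At 1.5-fold 8 of the 10 were lower in each genotype, where 12.4% of compared genes were in tissue labelled Neil3-/- and 9.56% in wild type. None of the 10 was at least 2-fold higher, where 8.2% of compared genes were in tissue labelled Neil3-/- and 6.21% in wild type.

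The median log2 ratio of the 10 genes was -1.06 in tissue labelled Neil3-/- and -0.98 in wild type, beside 0.24 and 0.21 for all compared genes. TMM and median-ratio scaling moved the median of all genes by -0.21 and -0.23 in tissue labelled Neil3-/- and by -0.20 and -0.20 in wild type. Under them, genes higher in infarcted tissue made up 34.1% and 32.0% of the counted genes in tissue labelled Neil3-/-, against 57.5% as deposited. In wild type these shares were 37.2% and 36.5%, against 63.3% as deposited. The 9 lower genes stayed lower and Pdk3 stayed higher under both scalings.

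Among the subunits, Pdhb was lowest in infarcted relative to non-infarcted tissue, 2.73-fold lower (2.61 to 2.86) in tissue labelled Neil3-/- and 2.30-fold lower (2.21 to 2.40) in wild type. Dlat was 2.39-fold lower (2.29 to 2.49) in tissue labelled Neil3-/- and 2.13-fold lower (2.04 to 2.22) in wild type. Pdha1 was 2.20-fold lower (2.14 to 2.28) in tissue labelled Neil3-/- and 2.04-fold lower (1.97 to 2.10) in wild type. Dld, at 1.98-fold (1.89 to 2.08) and 1.93-fold (1.84 to 2.02) lower, just missed the 2-fold count in both genotypes. The subunits therefore stayed within a narrow band, but not in fixed proportion. The RPKM ratio of Pdhb to Pdha1 was 0.878 (0.839 to 0.918) in infarcted and 1.09 (1.05 to 1.12) in non-infarcted tissue labelled Neil3-/-, and 0.987 (0.947 to 1.03) and 1.12 (1.08 to 1.15) in wild type. Dld lay the other way against Pdha1, at 0.610 (0.584 to 0.638) and 0.549 (0.530 to 0.568) in tissue labelled Neil3-/- and at 0.554 (0.531 to 0.579) and 0.526 (0.508 to 0.544) in wild type. The wild-type intervals of infarcted and non-infarcted tissue overlapped for Dld.

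Among the kinases, Pdk2 was 3.34-fold lower (3.19 to 3.51) in infarcted tissue labelled Neil3-/- and 2.47-fold lower (2.36 to 2.58) in wild type, the lowest ratio of the 10 genes in each genotype. Pdk4 was 2.74-fold lower (2.64 to 2.86) in tissue labelled Neil3-/- and 2.12-fold lower (2.0 to 2.24) in wild type. Pdk1 was 1.55-fold lower (1.46 to 1.64) and 1.32-fold lower (1.25 to 1.40). Pdk3 was 1.97-fold higher (1.62 to 2.41) in infarcted tissue labelled Neil3-/- and 1.99-fold higher (1.63 to 2.44) in wild type. Its log2(RPKM + 1) ratio was 0.86 in both, below the 2-fold count, and it passed at 1.5-fold, as did 25% of compared genes in tissue labelled Neil3-/- and 21.6% in wild type. A ratio as high as that of Pdk3 or higher was found for 1523 of the 12563 compared genes in tissue labelled Neil3-/- and for 1225 of 12515 in wild type, Pdk3 included. The phosphatase Pdp1 was 1.32-fold lower (1.17 to 1.49) in tissue labelled Neil3-/- and 1.67-fold lower (1.48 to 1.88) in wild type. Pdp2 was 1.87-fold lower (1.52 to 2.29) in tissue labelled Neil3-/- and 2.02-fold lower (1.64 to 2.50) in wild type, with the wide intervals of 145 to 253 reads.

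**Figure D2:**
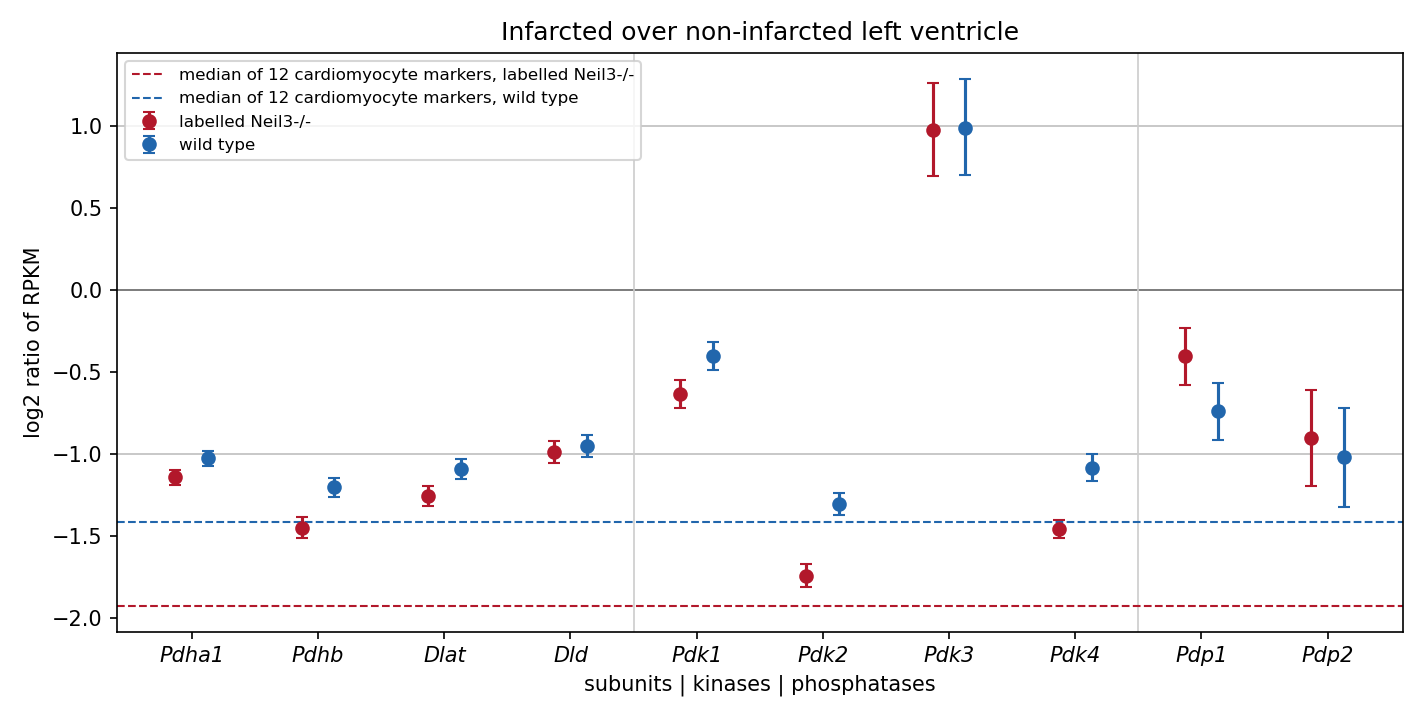
Infarcted over non-infarcted log2 ratio of RPKM (vertical axis) for each gene in libraries labelled Neil3-/- (red) and wild type (blue); bars are exact 95% counting intervals and dashed lines are the median log2(RPKM + 1) ratio of 12 cardiomyocyte markers. Pdk3 lies near 1 in both genotypes and the other genes lie below 0, all above the marker median of their own genotype.

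Cardiomyocyte markers were lower in infarcted tissue too, with 12 of 12 at least 2-fold lower in tissue labelled Neil3-/- (median log2 ratio -1.92) and 9 of 12 in wild type (median -1.41). In bulk tissue, fewer cardiomyocytes and less RNA per cardiomyocyte cannot be told apart. Pdk2 came nearest to the markers, at 0.20 log2 units above their median in tissue labelled Neil3-/- and 0.12 above it in wild type. Pdha1 lay 0.79 and 0.39 above it and Pdk1 1.31 and 1.02 above it. Myeloid markers such as Itgam and Lyz2 were higher in infarcted tissue, with 8 of 10 and 9 of 10 at least 2-fold higher in tissue labelled Neil3-/- and wild type in turn. Their summed level was 1647 and 665 RPKM in infarcted and non-infarcted tissue labelled Neil3-/- and 1209 and 405 RPKM in wild type. Summed fibroblast markers were at 3444 and 2129 RPKM in tissue labelled Neil3-/- and at 2243 and 1667 RPKM in wild type. Of these 6 markers, 5 lay above 0 in infarcted over non-infarcted tissue labelled Neil3-/- (median 0.55), 1 of them at least 2-fold. In wild type 3 lay above 0 and 3 below (median 0.29), none at 2-fold. The medians of all compared genes were 0.24 and 0.21. The part of these cell types in the lower subunit levels or the higher Pdk3 level was not tested.

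Genes for other mitochondrial functions gave a second yardstick. The 10 reference genes were of the citrate cycle, respiratory chain and mitochondrial membranes, with the matrix protein gene Hspd1. Of these, 8 were at least 2-fold lower in infarcted tissue labelled Neil3-/- (median -1.26) and 3 in wild type (median -0.88). In each genotype 1 of the 10 lay above 0, which widens their range. Ndufs1, a complex I subunit, was 2.57-fold lower (2.46 to 2.68) in tissue labelled Neil3-/- and 2.13-fold lower (2.05 to 2.22) in wild type. Sdha of succinate dehydrogenase was 2.60-fold and 2.10-fold lower, and the ATP synthase subunit Atp5a1 2.60-fold and 2.08-fold lower. Pdk2 lay below all 10 of these genes in both genotypes, while Pdha1, Dlat and Dld lay within their range. Pdhb lay below 9 of the 10 in tissue labelled Neil3-/- and below all 10 in wild type.

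Genes that help the complex were mixed. Of 10 genes for partner proteins, lipoylation and pyruvate entry, 4 were at least 2-fold lower in infarcted tissue labelled Neil3-/- and 3 in wild type, with medians of -0.68 and -0.51. In wild type 3 of the 10 lay above 0, and in tissue labelled Neil3-/- 1 of 10. Pdpr, the regulatory subunit of the phosphatase, was 2.32-fold lower (2.09 to 2.59) in tissue labelled Neil3-/- and 2.28-fold lower (2.06 to 2.52) in wild type. The pyruvate carrier genes Mpc1 and Mpc2 were 2.34-fold (2.23 to 2.46) and 2.75-fold (2.50 to 3.02) lower in tissue labelled Neil3-/-, and 2.09-fold (1.99 to 2.19) and 2.06-fold (1.90 to 2.24) lower in wild type. Of the sister complexes that share Dld or are built on the same plan, 5 of 9 compared genes were at least 2-fold lower in tissue labelled Neil3-/- and 3 of 10 in wild type. Ppm1k, the phosphatase of the branched-chain complex, was 3.60-fold lower (3.18 to 4.09) and 3.67-fold lower (3.27 to 4.12). Bckdha, the alpha subunit of that complex, was 3.32-fold lower (3.05 to 3.62) and 2.39-fold lower (2.20 to 2.60). Ogdh, of the oxoglutarate complex, was 3.00-fold lower (2.95 to 3.05) and 2.35-fold lower (2.31 to 2.39), in tissue labelled Neil3-/- and wild type in turn.

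Because levels of the kinases differed in infarcted tissue by unequal factors, the kinase mix within a library differed too. Such shares do not depend on the scaling between libraries. Pdk2 made up 38.2% and 48.5% of summed kinase RPKM in infarcted and non-infarcted tissue labelled Neil3-/-, and 51.9% and 62.7% in wild type. Pdk4 made up 39.3% and 40.9% in tissue labelled Neil3-/-, and 23.0% and 23.9% in wild type, so its share differed little between tissues and more between genotypes. Pdk1 made up 15.6% and 9.19% in tissue labelled Neil3-/- and 18.0% and 11.7% in wild type. Pdk3 made up 6.98% and 1.34% in tissue labelled Neil3-/- and 7.08% and 1.74% in wild type. Pdk1 and Pdk3 thus had larger shares in infarcted tissue, at the expense of Pdk2, in both genotypes. Per length, Pdk3 stood at 0.183 (0.163 to 0.204) and 0.0277 (0.0234 to 0.0327) of the Pdk2 level in infarcted and non-infarcted tissue labelled Neil3-/-, and at 0.137 (0.121 to 0.153) and 0.0278 (0.0234 to 0.0329) in wild type.

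**Figure D3:**
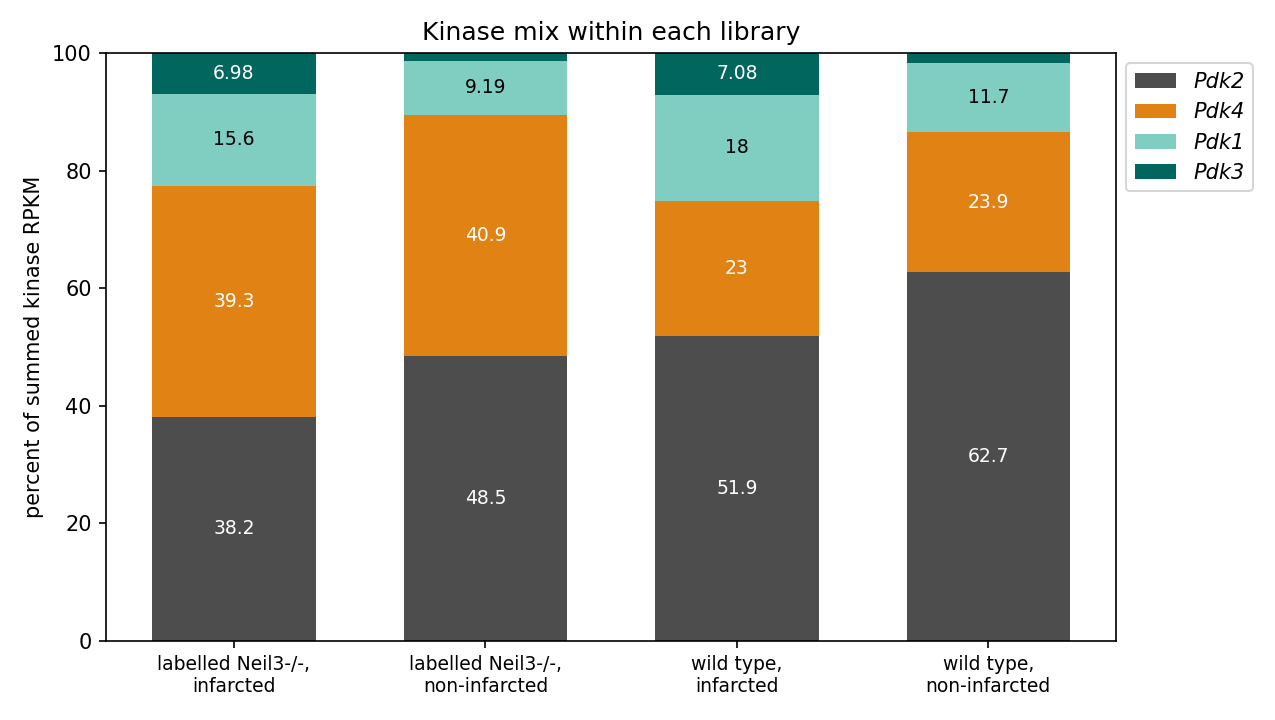
Percent of summed kinase RPKM (vertical axis) given by Pdk2, Pdk4, Pdk1 and Pdk3 in each of the 4 libraries. Pdk4 holds 39.3% and 40.9% in the libraries labelled Neil3-/- and 23.0% and 23.9% in wild type, and Pdk3 is at 6.98% and 7.08% in the infarcted libraries.

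The second comparison asks how libraries labelled Neil3-/- differed from wild type in the same tissue, and here Pdk4 was the gene that stood out. In non-infarcted tissue it was 2.40-fold higher (2.31 to 2.50) in the library labelled Neil3-/-, and 14 of 12226 compared genes had a ratio as high or higher, itself included. In infarcted tissue it was 1.86-fold higher (1.75 to 1.96), a ratio reached by 48 of 12464 compared genes. Pdk4 was the 1 gene of the 10 counted at 2-fold in non-infarcted tissue, where 0.254% of all genes were higher and 0.188% lower by that much. In infarcted tissue none of the 10 was counted at 2-fold, where 0.249% of genes were higher and 0.241% lower, and Pdk4 alone passed 1.5-fold, as 1.51% of genes did in that direction (1.14% in non-infarcted tissue). Relative to Pdk2 within a library, Pdk4 stood at 1.03 (0.976 to 1.08) in infarcted tissue labelled Neil3-/- against 0.443 (0.417 to 0.470) in wild type. In non-infarcted tissue the ratio was 0.844 (0.816 to 0.873) in the library labelled Neil3-/- against 0.380 (0.364 to 0.397) in wild type.

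The subunits differed far less between genotypes. In infarcted tissue Pdhb was 1.27-fold lower (1.21 to 1.33), Dlat 1.16-fold lower (1.11 to 1.22) and Pdha1 1.13-fold lower (1.09 to 1.17) in the library labelled Neil3-/-. Dld was 1.03-fold lower with an interval that included 1 (0.974 to 1.08). In non-infarcted tissue Pdhb was 1.07-fold lower (1.03 to 1.11) and Pdha1 1.04-fold lower (1.02 to 1.07), while Dlat (1.03-fold lower, 0.998 to 1.07) and Dld (1.001-fold higher, 0.961 to 1.04) could not be told from no difference by counting error alone. Pdk2 was 1.25-fold lower (1.18 to 1.32) in the infarcted library labelled Neil3-/- but 1.08-fold higher (1.04 to 1.12) in the non-infarcted one. Pdk1 was 1.06-fold lower (1.002 to 1.13) in infarcted and 1.10-fold higher (1.04 to 1.16) in non-infarcted tissue. Pdk3 was 1.07-fold higher (0.920 to 1.25) and 1.08-fold higher (0.850 to 1.37) in turn, both intervals holding 1. Pdp1 was 1.09-fold higher (0.963 to 1.24) in infarcted and 1.16-fold lower (1.03 to 1.30) in non-infarcted tissue. Pdp2 was 1.07-fold higher (0.847 to 1.34) and 1.02-fold lower (0.848 to 1.22).

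**Figure D4:**
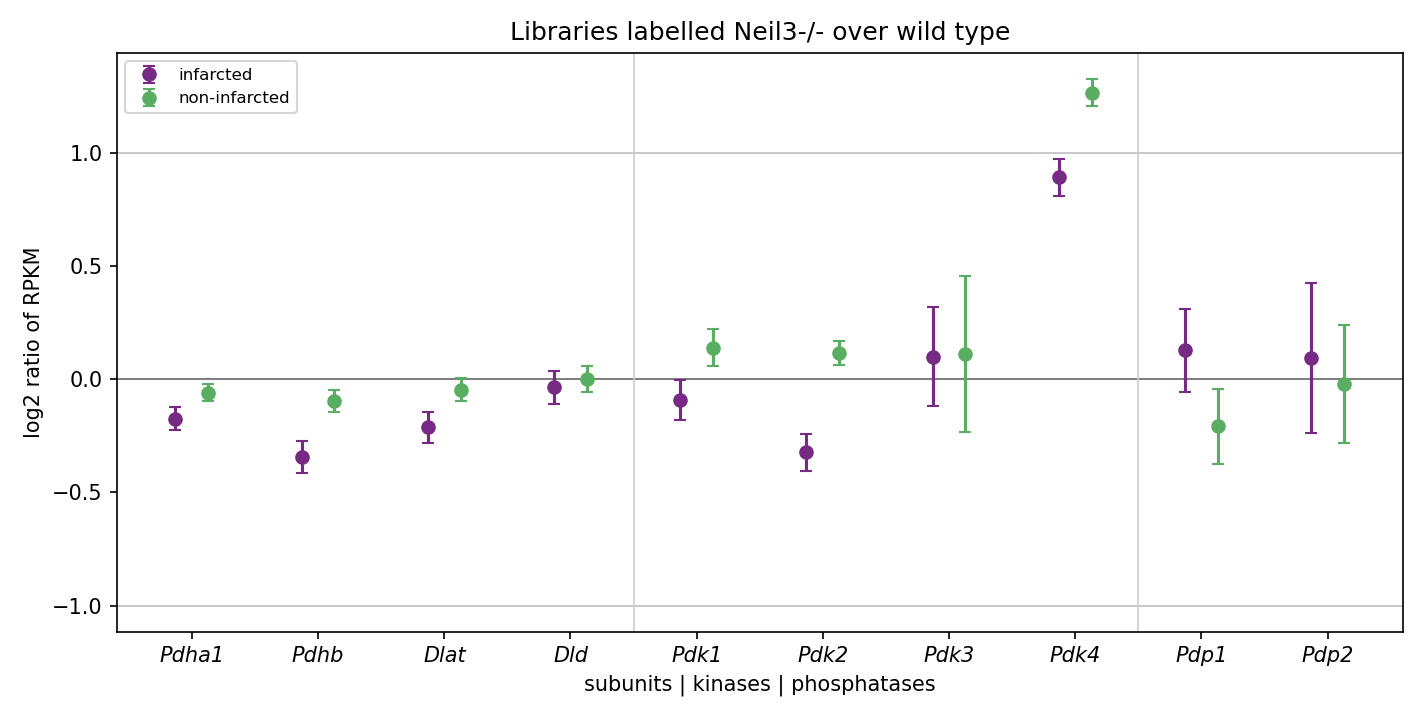
Libraries labelled Neil3-/- over wild type, as log2 ratio of RPKM (vertical axis), in infarcted (purple) and non-infarcted (green) tissue; bars are exact 95% counting intervals. Pdk4 is 1.86-fold and 2.40-fold higher, and no other gene is further from 1 than Pdhb in infarcted tissue, at 1.27-fold lower.

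Genes reported as targets of PPAR receptors, of which Pdk4 is one, were set beside it. In non-infarcted tissue 11 of 12 lay above 0 in the library labelled Neil3-/-, with a median log2 ratio of 0.19 beside 0.01 for all compared genes, but none was counted at 2-fold. Ucp3, a mitochondrial carrier of muscle, was 2.12-fold higher (1.78 to 2.53) at 11.3 against 5.35 RPKM, a log2(RPKM + 1) ratio of 0.96. Angptl4, a secreted inhibitor of lipoprotein lipase, was 1.89-fold higher (1.61 to 2.22) at 16.1 against 8.55 RPKM. Plin5, a lipid droplet protein, was 1.08-fold higher (0.976 to 1.20). In infarcted tissue 4 of 11 compared targets lay above 0 in the library labelled Neil3-/- (median -0.13), among them Angptl4 at 1.63-fold (1.53 to 1.73) and Ucp3 at 1.88-fold (1.29 to 2.76) higher. Plin5 was 1.57-fold lower (1.26 to 1.95) there. Ucp3, like the atrial and adipocyte markers named below, was chosen after its values were seen.

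The same targets split in the infarct comparison, with 8 of 12 at least 2-fold lower and 2 of 12 at least 2-fold higher in infarcted tissue of each genotype. Angptl4 was 5.01-fold higher (4.53 to 5.55) in infarcted tissue labelled Neil3-/- and 5.81-fold higher (5.07 to 6.67) in wild type. Plin5 was 6.41-fold lower (5.36 to 7.71) in tissue labelled Neil3-/- and 3.78-fold lower (3.24 to 4.42) in wild type. Pdk4 was on the side of the lower group.

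None of 11 transcription regulators that act on Pdk4 differed by 2-fold between genotypes in either tissue. The coactivator Ppargc1b, named after its values were seen, had the largest genotype difference of the 11, at 1.89-fold lower (1.66 to 2.16) in infarcted and 1.30-fold lower (1.18 to 1.43) in non-infarcted tissue labelled Neil3-/-. The fatty acid receptor Ppara was at 3.04 RPKM in infarcted tissue labelled Neil3-/- and at 4.63 RPKM in wild type, 1.53-fold lower (1.34 to 1.73). In non-infarcted tissue it was 1.09-fold lower (1.01 to 1.17) in the library labelled Neil3-/-. The coactivator Ppargc1a was 1.28-fold lower (1.15 to 1.42) in infarcted and 1.06-fold higher (0.997 to 1.13) in non-infarcted tissue labelled Neil3-/-. The orphan receptor Esrrg was 1.19-fold lower (1.02 to 1.38) and 1.01-fold lower (0.918 to 1.12). In the infarct comparison 4 of 11 regulators were at least 2-fold lower in tissue labelled Neil3-/- and 3 of 11 in wild type. Ppargc1a was 4.05-fold (3.71 to 4.43) and 2.99-fold (2.75 to 3.25) lower, Ppara 4.35-fold (3.90 to 4.87) and 3.10-fold (2.82 to 3.41) lower, and Esrrg 3.02-fold (2.65 to 3.44) and 2.58-fold (2.28 to 2.92) lower.

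Hypoxia target genes, set beside Pdk1 and Pdk3, were mixed. In infarcted tissue 3 of 12 were at least 2-fold higher and 1 of 12 at least 2-fold lower in tissue labelled Neil3-/- (median 0.05, smaller than the shift of all genes under either scaling), and 5 and 0 of 12 in wild type (median 0.68). The medians of all compared genes were 0.24 and 0.21. Below 0 lay 6 of the 12 in tissue labelled Neil3-/- and 3 of 12 in wild type. The genes named next had the wild-type ratios furthest from 0, and all were on the higher side. In tissue labelled Neil3-/- the lactate exporter Slc16a3 was 4.24-fold higher (3.78 to 4.77), the glucose transporter Slc2a1 2.12-fold higher (1.93 to 2.32) and the peptide hormone gene Adm 1.89-fold higher (1.51 to 2.39). In wild type Slc16a3 was 4.69-fold higher (4.19 to 5.26), Slc2a1 2.49-fold higher (2.29 to 2.70) and Adm 3.80-fold higher (3.01 to 4.83). All 12 lay below 0 in the infarcted library labelled Neil3-/- against wild type, with a median of -0.39 and none at 2-fold. Of all compared genes 5672 of 12464 lay below 0 there (median 0.02). So did 12 of 12 cardiomyocyte markers (median -0.55) and 9 of 10 mitochondrial reference genes (median -0.29). Pdk1 and Pdk3 lay at -0.09 and 0.09 in the same comparison.

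Other cell types also differed between the genotypes' libraries. In non-infarcted tissue the atrial light chains Myl7 and Myl4 were 4.61-fold (3.67 to 5.84) and 3.94-fold (3.38 to 4.62) lower in the library labelled Neil3-/-, and 3 of 4 atrial markers were at least 2-fold lower. Summed atrial markers, 4 found of 5 listed, were at 1256 RPKM in that library and 1835 RPKM in wild type, and Sln had no reads in either infarcted library. In infarcted tissue the sum was higher, at 1808 RPKM in the library labelled Neil3-/- and 2501 RPKM in wild type. Yet 3 of the 4 were at least 2-fold lower in infarcted than in non-infarcted tissue of each genotype. The medians were -2.03 in tissue labelled Neil3-/- and -3.73 in wild type, and 1 of 4 lay above 0. The sum therefore does not follow most of its markers. In non-infarcted tissue 8 of 10 myeloid markers, 5 of 6 fibroblast markers, 2 of 12 cardiomyocyte markers and 0 of 5 endothelial markers lay above 0 in the library labelled Neil3-/-. Their medians were small, at 0.14, 0.24, -0.08 and -0.05 in turn, and 6571 of 12226 compared genes lay above 0. In infarcted tissue 12 of 12 cardiomyocyte markers lay below 0 in the library labelled Neil3-/- (median -0.55) and 6 of 6 fibroblast markers above 0 (median 0.61). Of myeloid markers 9 of 10 lay above 0 there (median 0.31), of smooth muscle and pericyte markers 4 of 4 (median 0.13). Of endothelial markers 0 of 5 did (median -0.07), beside 6792 of 12464 compared genes. Summed adipocyte markers were at 3.58 RPKM in the non-infarcted library labelled Neil3-/- and 4.26 RPKM in wild type, most of it Cfd at 3.02 and 3.48 RPKM, and Lep had no reads in the library labelled Neil3-/-. Pdk4 lay 1.33 log2 units above the cardiomyocyte marker median in non-infarcted and 1.42 above it in infarcted tissue. The part of cell mixture in the Pdk4 difference was not tested.

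The infarct ratio differed between genotypes for some of the 10 genes. Divided by its wild-type value, the infarct ratio in tissue labelled Neil3-/- was 0.738 for Pdk2 (0.690 to 0.789), 0.772 for Pdk4 (0.720 to 0.828), 0.843 for Pdhb (0.793 to 0.896), 0.853 for Pdk1 (0.785 to 0.927), 0.891 for Dlat (0.840 to 0.945) and 0.924 for Pdha1 (0.884 to 0.965). These 6 genes were therefore further below non-infarcted tissue in the libraries labelled Neil3-/-. For Pdp1 the value was 1.26 (1.06 to 1.5). The intervals for Dld (0.912 to 1.04), Pdk3 (0.746 to 1.32) and Pdp2 (0.806 to 1.45) held 1. On the log2(RPKM + 1) scale the differences ran from -0.43 for Pdk2 to 0.30 for Pdp1, where the 5th and 95th percentiles of 12716 genes were -0.42 and 0.38. Only Pdk2 of the 10 lay outside that span, and with 1 library per group none of these differences was tested. Cardiomyocyte markers and mitochondrial reference genes were also further below non-infarcted tissue in the libraries labelled Neil3-/-. The median infarct log2 ratio was -1.92 in tissue labelled Neil3-/- and -1.41 in wild type for the markers, and -1.26 and -0.88 for the reference genes. Their part in the differences of the 6 genes was not tested.

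Genes of most similar pattern were looked for among 9639 genes with reads in all 4 libraries and 5 RPKM or more in at least 1, by the largest difference in log2 RPKM centred on the mean of the 4 libraries. For Pdha1 they included Zfp106 and Rmdn1, within 0.025 and 0.026. For Pdk2 they were Macrod1, Hadhb and Sbk1, within 0.037, 0.037 and 0.038. For Pdk1 they were Polrmt, Ppp1r37 and Zer1, within 0.017, 0.023 and 0.025, and for Pdk3 Nsg1, Cad and Piezo1, within 0.015, 0.024 and 0.025. Pdk4 had no such close neighbours: the nearest were Myl1, Msrb2 and Cpxm2, within 0.41, 0.44 and 0.45. Myl1, which codes for a light chain of myosin, was at 47.5 and 84.6 RPKM in infarcted and non-infarcted tissue labelled Neil3-/- and at 18.1 and 37.8 RPKM in wild type. With 4 points per gene, the likeness is a description of these libraries.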

How the data were processed

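Genome build mm9 is named in the submitters' processing notes. Neither aligner nor counting tool is named there, and the annotation is likewise not given in the sources used here. The deposited read counts are whole numbers of uniquely assigned reads per gene, and they sum to the total in each file header (14.3 M to 18.2 M). Deposited RPKM values were recomputed from reads, listed length and header total, and differed by at most 5.11e-15 of the value. Deposited coverage, in percent per the file headers, was used as a description only. A gene absent from a file was taken as 0 reads. Ratios of RPKM have exact Clopper-Pearson 95% intervals. An infarct ratio divided by its wild-type value has the exact conditional 95% interval of an odds ratio of read counts. Log2 ratios use a pseudocount of 1 RPKM and leave out genes under 1 RPKM in both libraries. No model was fitted and no p-value computed, since each group holds 1 library. The call rule was tested on simulated data with counting noise only and planted changes larger than 2-fold. That simulation held no spread between mice, so it cannot show how the rule does on such spread. Scaling alternatives used edgeR 4.0.16 and DESeq2 1.42.0, and other steps Python 3.11.15, numpy 2.4.6, pandas 2.3.3 and scipy 1.17.1. Named genes are the 10 members, up to 3 genes of each list with the wild-type infarct log2 ratio furthest from 0, and the 3 nearest genes in pattern for 5 members. Some genes that this rule selects are not reported here. Members and lists were chosen with earlier results of these data known, so they give no independent support.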

Additional observations from a re-analysis of the deposited data

Results flagged for a closer look

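The genotype difference lay in opposite directions in infarcted and non-infarcted tissue for 5 genes. With 1 library per group the difference was not tested. Of all compared genes, 6792 of 12464 were higher in the library labelled Neil3-/- in infarcted tissue and 6571 of 12226 in non-infarcted tissue. How many of them lay in opposite directions in the tissues was not counted. The 5 genes are therefore not shown to stand out from other genes in this. Infarcted minus non-infarcted, the difference of the log2 ratios (labelled Neil3-/- over wild type) was -0.43 for Pdk2, -0.22 for Pdk1, 0.30 for Pdp1, 0.084 for Pdp2 and -0.037 for Dld. Under each of the 3 other scalings Dld was lower in the libraries labelled Neil3-/- in non-infarcted tissue too, which leaves 4 genes. For Pdk2 the counting intervals lay below 1 in infarcted tissue (1.18 to 1.32-fold lower) and above 1 in non-infarcted tissue (1.04 to 1.12-fold higher). For Pdk1 they were 1.002 to 1.13-fold lower and 1.04 to 1.16-fold higher. For Dld and Pdp2 the intervals of both tissues held 1, and for Pdp1 that of infarcted tissue did.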

How the results depend on the processing

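Counts of members, their log2 ratios and the differences of their infarct ratios were recomputed with a pseudocount of 0.1, with TMM and median-ratio scaling, and with library totals without the 20 genes with most reads. The counts were also recomputed with no filter, with a minimum of 5 RPKM and at 1.5-fold. Gene list and marker counts, ratios within a library and genes of similar pattern were not recomputed. At 1.5-fold, 8 of the 10 genes were lower and 1 higher in infarcted tissue in each genotype, and 1 was higher in the infarcted library labelled Neil3-/- than in wild type. Counts over all genes moved more. With the smaller pseudocount, 70 genes were at least 2-fold higher and 71 lower in the infarcted library labelled Neil3-/- than in wild type (31 and 30 as reported), and 70 and 48 in non-infarcted tissue (31 and 23). Genes at least 2-fold higher in infarcted tissue then numbered 1578 in tissue labelled Neil3-/- (1030) and 1262 in wild type (777). Under TMM these were 549 and 455, and under median-ratio scaling 517 and 448, while lower genes in wild type numbered 769 and 781 (450). With a minimum of 5 RPKM the genotype counts were 18 and 14, and 16 and 9. The other settings kept each count of members within 1.5 times its value as reported. Of 40 log2 ratios of single genes, 16 moved beyond their counting interval under each of TMM and median-ratio scaling, 8 without the top 20 genes and 0 under the smaller pseudocount. Among these ratios only Dld changed sign, between genotypes in non-infarcted tissue, at -0.015, -0.011 and -0.0056 under the 3 scalings against 0.0014 as reported. The difference of infarct ratios for Pdk3 was 0.0015 without the top 20 genes, against -0.0018 as reported, and no other such difference changed sign. By reads in place of RPKM, which favours long genes, the kinase shares in infarcted and non-infarcted tissue labelled Neil3-/-, then in wild type, were 27.5%, 36.6%, 38.8% and 49.5% for Pdk2. They were 42.8%, 46.8%, 26.1% and 28.5% for Pdk4, 25.3%, 15.6%, 30.4% and 20.8% for Pdk1, and 4.41%, 0.891%, 4.65% and 1.21% for Pdk3. No paired analysis was possible because each group holds 1 library and no replicate was left out for the same reason. Depth limited Pdk3, Pdp1 and Pdp2 most, with 141 to 661 reads a library.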

Other observations

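The deposited coverage, the percent of a gene model covered by reads, was steady for most of the 10 genes. Pdha1 was covered to 87.1% and 87.2% in infarcted and non-infarcted tissue labelled Neil3-/- and to 87.1% and 87.3% in wild type, although its reads ranged from 6051 to 11383. Pdp1 was covered to 77.5% and 78.0% in tissue labelled Neil3-/- and to 73.5% and 76.4% in wild type. Pdk3 was covered to 97.0% and 88.7% in tissue labelled Neil3-/- and to 93.6% and 85.3% in wild type, higher in the libraries with more of its reads.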
